A study of Homo sapiens with 12 samples.

Results

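The miR-19 and miR-92 families were followed as 8 mature miRNA names taken by name from the count tables: hsa-miR-19a-3p, hsa-miR-19a-5p, hsa-miR-19b-3p, hsa-miR-19b-1-5p, hsa-miR-92a-3p, hsa-miR-92a-1-5p, hsa-miR-92b-3p and hsa-miR-92b-5p. The prefix hsa, for human, is left off from here on. They are 8 of the 1971 miRNA names listed for at least 1 of the 2 cell lines. All 8 were listed in both lines and all 8 passed the filter on low counts in both. The reads come from AQ-seq, a form of small RNA sequencing built to lessen the bias of adapter ligation. It was run on HCT116 cells, which derive from a human colorectal carcinoma, and on HEK293T cells, which derive from human embryonic kidney. Every group was rescued with a form of DICER: WT, ΔdsRBD (the double-stranded RNA-binding domain removed, called the dsRBD deletion here) or AA, a form whose change the labels do not describe. No group without rescue was analysed here, so all values are against the WT rescue of the same line. Each of the 6 groups held 2 libraries. Whether the pair comes from separate cultures is not stated in the labels, so a p-value here speaks for libraries and not for cultures. The spread behind it was estimated over all groups of a fit, with information shared between names. The sources used here do not give how much of each DICER form the cells made, and an effect of the altered protein cannot be told apart from that of a different amount of it.

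DICER cuts the loop from a hairpin precursor and leaves a duplex of a 5p and a 3p strand, of which Argonaute proteins keep mostly the guide and discard the passenger. The dsRBD is a C-terminal domain of DICER that contacts the double-stranded stem. In both families the guide is the 3p strand. The miR-19 and miR-92a hairpins lie on the transcript MIR17HG together with miR-17, miR-18a and miR-20a, a cluster known as an oncogene in lymphoma and carcinoma. Of its members, miR-92a is known as a repressor of vessel growth. A paralogous cluster on chromosome X carries further copies of miR-19b and miR-92a, and miR-92b comes from a separate locus.

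The 4 guides are shown first because each pair shares a seed (bases 2 to 8, in capitals), the stretch that selects target mRNAs, while the ratio of its members changed with the dsRBD deletion. All sequences are RefSeq entries on GRCh38.p14, 5′ to 3′.
miR-19a-3p: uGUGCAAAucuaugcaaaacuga
miR-19b-3p: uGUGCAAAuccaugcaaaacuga
miR-92a-3p: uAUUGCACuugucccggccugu
miR-92b-3p: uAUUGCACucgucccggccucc
MiR-19a-3p and miR-19b-3p are identical at 22 of 23 bases and differ by U11C, counted from the 5′ end of miR-19a-3p. MiR-92a-3p and miR-92b-3p are identical at 19 of 22 bases and differ by U10C, G21C and U22C, counted in the same way on miR-92a-3p. The sources used here do not give how reads matching more than 1 name were counted, so miR-19a-3p and miR-19b-3p may share some reads. The seed of the miR-92 guides is also that of miR-25-3p, miR-32-5p, miR-363-3p and miR-367-3p.

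The 4 passengers are shown because the highest fold change of the 8 members with the deletion was that of a passenger in each line. The miR-19 passengers share a seed with each other, and each miR-92 passenger has its own.
miR-19a-5p: aGUUUUGCauaguugcacuaca
miR-19b-1-5p: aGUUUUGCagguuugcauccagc
miR-92a-1-5p: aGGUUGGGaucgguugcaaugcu
miR-92b-5p: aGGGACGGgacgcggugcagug
The GC content of the guides was 34.8% in miR-19a-3p, 39.1% in miR-19b-3p, 54.5% in miR-92a-3p and 63.6% in miR-92b-3p. That of the passengers was 36.4% in miR-19a-5p, 47.8% in miR-19b-1-5p, 52.2% in miR-92a-1-5p and 72.7% in miR-92b-5p. All 4 guides begin with U and all 4 passengers with A.

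The hairpins are shown with both mature arms in capitals, because the change of 3p against 5p within a hairpin is the measure below that no scaling of the libraries can alter. The lower-case stretch between the arms is the loop side, and its borders are the annotated DICER cut sites.
MIR19A: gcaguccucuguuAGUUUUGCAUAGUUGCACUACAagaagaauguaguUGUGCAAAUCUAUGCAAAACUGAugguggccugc
MIR19B1: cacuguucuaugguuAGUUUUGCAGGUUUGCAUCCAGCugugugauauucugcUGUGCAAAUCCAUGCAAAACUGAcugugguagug
MIR92A1: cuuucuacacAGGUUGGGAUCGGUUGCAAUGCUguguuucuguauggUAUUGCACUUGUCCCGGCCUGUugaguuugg
MIR92B: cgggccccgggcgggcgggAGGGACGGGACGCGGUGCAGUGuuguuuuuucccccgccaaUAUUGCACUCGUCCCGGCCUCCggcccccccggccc
On GRCh38.p14, MIR19A lies at chr13:91350891-91350972, MIR19B1 at chr13:91351192-91351278 and MIR92A1 at chr13:91351314-91351391, all on the plus strand. MIR19B1 ends 35 bases before MIR92A1 begins, and MIR19A ends 219 bases before MIR19B1. Of the 3 MIR17HG transcripts that overlap these hairpins in GENCODE, 2 hold them in an exon and 1 in an intron. MIR92B lies at chr1:155195177-155195272 on the plus strand, in an exon of AC234582.1, which is annotated as antisense.
Between the arms lie 13 bases in MIR19A, 15 in MIR19B1, 14 in MIR92A1 and 19 in MIR92B. The last 3 bases before the 3p arm are AGU, UGC, UGG and CAA in the same order. The predicted folding energy of the RefSeq hairpin was −66.0 kcal/mol for MIR92B and between −38.7 and −35.5 kcal/mol for the 3 cluster hairpins. The tables count reads per name and hold no read ends, so a shifted cut site is not visible in them.

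Libraries held 824987 to 4498886 miRNA reads in HCT116 and 1059778 to 3552613 in HEK293T, with the dsRBD deletion libraries the shallowest of each line. The lowest count of any member was 48 reads, for miR-92b-5p in a HEK293T deletion library. Replicates of every group differed by more than counting noise (chi-square over its degrees of freedom 10.3 to 84.4). Of the colorectal epithelium markers, miR-200c-3p had a median of 51.2 CPM (read counts scaled to a common library size) in HCT116 and 24.2 CPM in HEK293T. The medians of miR-141-3p were 55.4 CPM in HCT116 and 13.7 CPM in HEK293T. MiR-192-5p and miR-194-5p were lower in HCT116 than in HEK293T, at medians of 147 against 669 CPM and 276 against 1113 CPM. Of the blood markers, medians in HCT116 were 352 CPM for miR-142-3p, 85.3 CPM for miR-451a, 6.04 CPM for miR-144-3p and 1.87 CPM for miR-223-3p, and the highest in HEK293T was 26.1 CPM, for miR-451a. Neuronal miR-124-3p had a median of 105 CPM in HEK293T (53.8 to 384) and 0.651 CPM in HCT116. The liver and muscle markers miR-122-5p, miR-1-3p and miR-133a-3p had medians of at most 4.85 CPM in either line. Their part in the results below was not tested.

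With WT DICER the 2 families summed to a far larger share of miRNA reads in HEK293T, though not every member was higher there. Together the 8 members took 2.23% and 2.04% of miRNA reads in the HCT116 WT libraries, against 21.5% and 17.96% in those of HEK293T. Levels are given from here on as CPM of a library's miRNA reads after TMM scaling within the line, a scaling that sets the typical miRNA equal between libraries. All 8 names are 22 or 23 bases long, and a read covers a whole miRNA, so levels were compared between names with no length correction.
In HCT116, miR-19b-3p stood at 9234 ± 1001 CPM (mean ± SD, n = 2) and miR-92a-3p at 8993 ± 1945 CPM, which did not differ beyond their spread. MiR-19a-3p followed at 4824 ± 978 CPM, then miR-19b-1-5p at 1061 ± 30.3 CPM and, without overlap, miR-92b-3p at 781 ± 234 CPM. MiR-19a-5p was at 130 ± 1.57 CPM. MiR-92b-5p at 46.9 ± 19.9 CPM and miR-92a-1-5p at 28.7 ± 11.7 CPM closed the order and overlapped.
In HEK293T the order was miR-92a-3p at 128160 ± 13822 CPM, miR-19b-3p at 52938 ± 3774 CPM, miR-19a-3p at 14909 ± 715 CPM and miR-92b-3p at 2009 ± 345 CPM. The passengers were lower, with miR-19b-1-5p at 908 ± 25.9 CPM, miR-92a-1-5p at 514 ± 195 CPM, miR-19a-5p at 80.4 ± 7.04 CPM and miR-92b-5p at 71.1 ± 7.35 CPM. Only the last pair overlapped.

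Tested over all 12 libraries with edgeR's quasi-likelihood test and Benjamini-Hochberg adjustment, 5 of the 8 members were higher in HEK293T with WT DICER and 1 was lower, where 32% of the 844 names tested were called higher and 41.2% lower. The median of all names was −0.39 on the log2 scale, and that of the 8 members 1.43. MiR-92a-3p was 13.7-fold higher in HEK293T (log2 fold change 3.77 ± 0.19 SE, edgeR adjusted p = 1.98e-14), and its passenger miR-92a-1-5p 17.5-fold (4.13 ± 0.30, edgeR adjusted p = 2.91e-11). The miR-19 guides were higher by less, 5.51-fold for miR-19b-3p and 2.97-fold for miR-19a-3p, and miR-92b-3p by 2.46-fold. The miR-19 passengers did not follow their guides: miR-19a-5p was 1.69-fold lower in HEK293T (edgeR adjusted p = 0.00811) and miR-19b-1-5p had a log2 fold change of −0.28 ± 0.17 (edgeR adjusted p = 0.137). MiR-92b-5p missed the threshold (0.55 ± 0.25, edgeR adjusted p = 0.0571). It was called higher with DESeq2 size factors, with library totals and without a filter on low counts (edgeR adjusted p = 0.0405, 0.00994 and 0.0241), and lower on spike-in scaling (−1.06, edgeR adjusted p = 0.000479). With library totals miR-19a-5p lost its call (−0.48, edgeR adjusted p = 0.123). Scaled on the spike-in RNAs instead, where the median of all names was −2.02, miR-19b-3p, miR-92a-3p and miR-92a-1-5p were still called higher, while miR-19a-3p (−0.12) and miR-92b-3p (−0.31) lost the call and the sign. There miR-19b-1-5p was called lower too (−1.94, edgeR adjusted p = 5.36e-10).

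With the dsRBD deletion all 4 miR-19 members rose and both miR-92 guides fell relative to the typical miRNA in HEK293T. In HCT116 both miR-92 guides fell too, and 3 of the 4 miR-19 members rose, by less than in HEK293T. MiR-19b-3p was the most abundant of the 8 members with the deletion in both lines. In HCT116 the deletion was followed by 4 members called higher (of all 795 names, 28.1%), 2 lower (of all, 34.1%) and 2 not called. In HEK293T 5 were called higher (of all 626 names, 35.9%) and 3 lower (of all, 39.6%). The median log2 fold change of the 8 was 0.30 in HCT116 and 1.29 in HEK293T, beside −0.01 and −0.07 over all names. The groups of 6 members did not overlap in HCT116 and of all 8 in HEK293T, beside 82.5% and 89% of all names.
All these directions are against the typical miRNA. On spike-in scaling the median of all names moved to −1.78 in HCT116 and −1.53 in HEK293T, and there the HCT116 rises of miR-19b-3p, miR-19a-5p and miR-19b-1-5p and the HEK293T rises of miR-19a-3p and miR-92a-1-5p turned to values below 0, given further on.

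**Figure D1:**
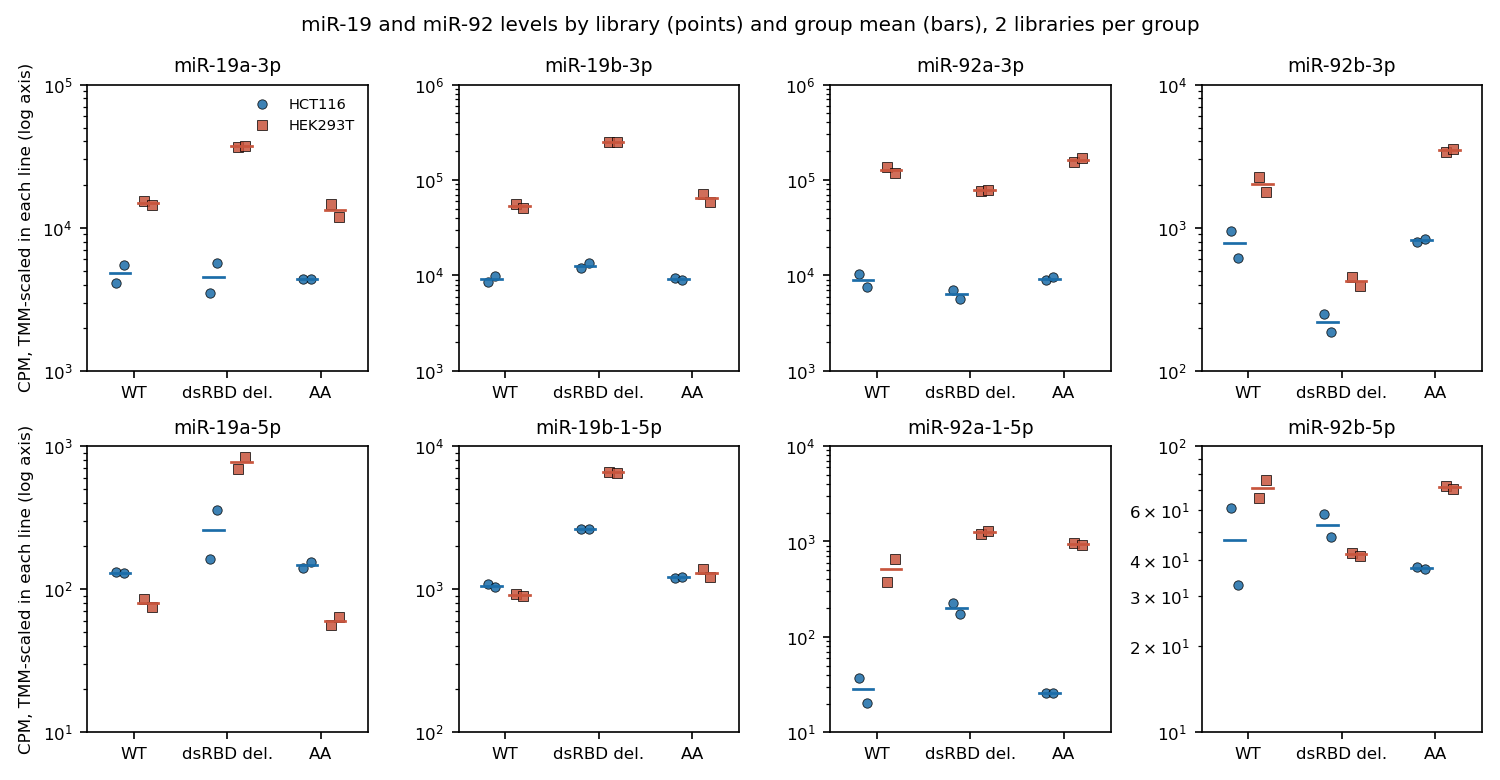
Levels of the 8 members in each library, in TMM-scaled CPM on log axes whose ranges differ between panels; points are libraries (circles HCT116, squares HEK293T), bars are means of 2 libraries, and the dsRBD deletion is labelled dsRBD del. Guides are in the upper row and passengers in the lower one; in HEK293T the deletion libraries of miR-19b-3p sit at 246933 and 248275 CPM, above WT at 55606 and 50269, while those of miR-92b-3p sit at 451.04 and 393, below WT at 2253 and 1765.

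Among the miR-19 guides, miR-19b-3p was at 8526 and 9941 CPM in the HCT116 WT libraries and at 11931 and 13413 CPM with the deletion. Both deletion libraries lay above both WT libraries, by a log2 fold change of 0.46 ± 0.12 (SE, edgeR adjusted p = 0.00723). The call was lost with 4 of the 6 libraries left out in turn: without WT replicate 1 the change was 0.22 (edgeR adjusted p = 0.214), without deletion replicate 2 it was 0.28 (0.07), and without AA replicate 1 or 2 it was 0.35 (0.0759) and 0.37 (0.0561). It was also lost without a filter on low counts (0.23, edgeR adjusted p = 0.184).
In HEK293T the same guide stood at 55606 and 50269 CPM with WT and at 246933 and 248275 CPM with the deletion, 4.68-fold higher (log2 fold change 2.23 ± 0.17, edgeR adjusted p = 5.76e-07). The deletion libraries were nearly equal and far above WT.
MiR-19a-3p, which differs from it at a single base, was at 4133 and 5515 CPM with WT and at 3479 and 5640 CPM with the deletion in HCT116. The groups overlapped, and the log2 fold change was −0.08 ± 0.21 (edgeR adjusted p = 0.738). Without deletion replicate 2, the higher of that pair, it was called lower (−0.56, edgeR adjusted p = 0.0171).
In HEK293T miR-19a-3p went from 15414 and 14403 CPM with WT to 36798 and 37067 CPM with the deletion, a 2.48-fold rise (1.31 ± 0.17, edgeR adjusted p = 3.23e-05).

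The miR-19 passengers rose more than their guides. In HCT116, miR-19b-1-5p was at 1082 and 1040 CPM with WT and at 2637 and 2638 CPM with the deletion (log2 fold change 1.31 ± 0.12, edgeR adjusted p = 3.32e-06). In HEK293T it went from 927 and 890 CPM to 6606 and 6498 CPM, 7.21-fold (2.85 ± 0.17, edgeR adjusted p = 1.17e-07). The deletion libraries lay well above WT in both lines.
MiR-19a-5p was at 131 and 129 CPM with WT in HCT116 and at 162 and 359 CPM with the deletion (1.02 ± 0.28, edgeR adjusted p = 0.00910). That rise was carried by deletion replicate 2, without which it was 0.22 (edgeR adjusted p = 0.281). In HEK293T it went from 85.4 and 75.4 CPM to 696 and 844 CPM, 9.59-fold (3.26 ± 0.20, edgeR adjusted p = 1.32e-07), the 15th highest log2 fold change of the 626 names.

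The miR-92 guides fell in both lines, and miR-92b-3p fell further than miR-92a-3p. In HCT116, miR-92b-3p went from 947 and 615 CPM with WT to 251 and 188 CPM with the deletion, 3.59-fold lower (log2 fold change −1.84 ± 0.22, edgeR adjusted p = 2.79e-05). In HEK293T it went from 2253 and 1765 CPM to 451.04 and 393 CPM, 4.76-fold lower (−2.25 ± 0.19, edgeR adjusted p = 1.40e-06). In neither line did the groups overlap.
MiR-92a-3p was at 10368 and 7618 CPM with WT in HCT116 and at 7012 and 5658 CPM with the deletion (−0.51 ± 0.16, edgeR adjusted p = 0.0173). Without deletion replicate 2 the fall was −0.45 and no longer called (edgeR adjusted p = 0.0505). With library totals as the scaling it was 0.0046 (edgeR adjusted p = 0.983), where the median of all names was 0.52.
In HEK293T miR-92a-3p went from 137933 and 118386 CPM with WT to 77430 and 78011 CPM with the deletion, 1.65-fold lower (−0.72 ± 0.15, edgeR adjusted p = 0.00147). With WT it was the most abundant of the 8 names there, and with the deletion it stood below miR-19b-3p.

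The miR-92 passengers split. MiR-92a-1-5p rose from 37.0 and 20.5 CPM with WT to 225 and 172 CPM with the deletion in HCT116, while both miR-92 guides fell. This was 6.79-fold (log2 fold change 2.76 ± 0.26, edgeR adjusted p = 4.68e-06), the 7th highest of the 795 names. In HEK293T it went from 377 and 652 CPM to 1191 and 1294 CPM, 2.41-fold (1.27 ± 0.24, edgeR adjusted p = 0.000577).
MiR-92b-5p overlapped between the groups in HCT116, at 60.9 and 32.8 CPM with WT and 57.8 and 48.1 CPM with the deletion (0.15 ± 0.28, edgeR adjusted p = 0.648). In HEK293T it fell from 65.9 and 76.3 CPM to 42.4 and 41.3 CPM (−0.77 ± 0.23, edgeR adjusted p = 0.0117). It rested on 48 and 54 reads in the deletion libraries, and without deletion replicate 1 its adjusted p in edgeR was 0.0523.

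As a plain share of all miRNA reads, with no scaling, the miR-19 seed (miR-19a-3p and miR-19b-3p together) took 1.12% and 1.27% of the HCT116 WT libraries and 1.81% and 2.43% of the deletion libraries. In HEK293T it went from 7.18% (exact Clopper-Pearson 95% interval 7.15 to 7.21) and 6.23% (6.20 to 6.25) to 30.3% (30.2 to 30.4) and 30.4% (30.3 to 30.5). Such intervals cover counting error only. The HEK293T deletion libraries lay far above WT and near each other, and the 8 members together took 39.6% and 39.7% of them.
The share of miR-92a-3p and miR-92b-3p together fell in HEK293T from 14.2% and 11.6% to 8.33% and 8.35%. In HCT116 it was 0.999% and 0.674% with WT and 0.853% and 0.745% with the deletion, and the groups overlapped.

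The ratio of the arms within a hairpin does not depend on how libraries are scaled. With the dsRBD deletion the 3p arm lost ground to the 5p arm in all 4 hairpins and in both lines. All 4 were called lower, where 47.2% of 231 hairpins were called lower in HCT116 and 30.2% of 182 in HEK293T. Each hairpin was tested in edgeR for an interaction between arm and group that keeps the arms of a library together. The median log2 change of 3p over 5p was −0.87 over all hairpins in HCT116 and −0.39 in HEK293T, so a move of this kind was common.
In HCT116 the miR-92a-1 hairpin had the largest change of the 4. It gave 280 and 372 guide reads per passenger read with WT and 31.2 and 32.9 with the deletion, 9.91-fold fewer (log2 change −3.31 ± 0.20, edgeR adjusted p = 2.99e-11). In HEK293T the ratio went from 366 and 181 to 65.0 and 60.3 (−2.04 ± 0.23, edgeR adjusted p = 4.85e-06), a change within its SE of that of miR-19a. MiR-92a-3p also comes from the X-linked copy, so this ratio sets the sum of both loci over the passenger of the chromosome 13 locus.
For miR-92b the ratio went from 15.5 and 18.8 to 4.34 and 3.90 in HCT116 (−2.05 ± 0.25, edgeR adjusted p = 6.51e-07), and from 34.2 and 23.1 to 10.6 and 9.50 in HEK293T (−1.48 ± 0.30, edgeR adjusted p = 0.000756).
For miR-19a it went from 31.5 and 42.7 to 21.5 and 15.7 in HCT116 (−1.02 ± 0.21, edgeR adjusted p = 0.000283), and from 181 and 191 to 52.8 and 43.9 in HEK293T (−1.95 ± 0.20, edgeR adjusted p = 1.99e-06).
For miR-19b-1 the ratio went from 7.88 and 9.56 to 4.52 and 5.08 in HCT116 (−0.86 ± 0.18, edgeR adjusted p = 0.000351) and from 60.004 and 56.5 to 37.4 and 38.2 in HEK293T (−0.62 ± 0.11, edgeR adjusted p = 0.000325). The HCT116 values of miR-19b-1 and miR-19a both lie within their SE of the median of all hairpins. MiR-19b-3p also has an X-linked copy, so the miR-19b-1 ratio likewise sets the sum of both loci over the chromosome 13 passenger.

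**Figure D2:**
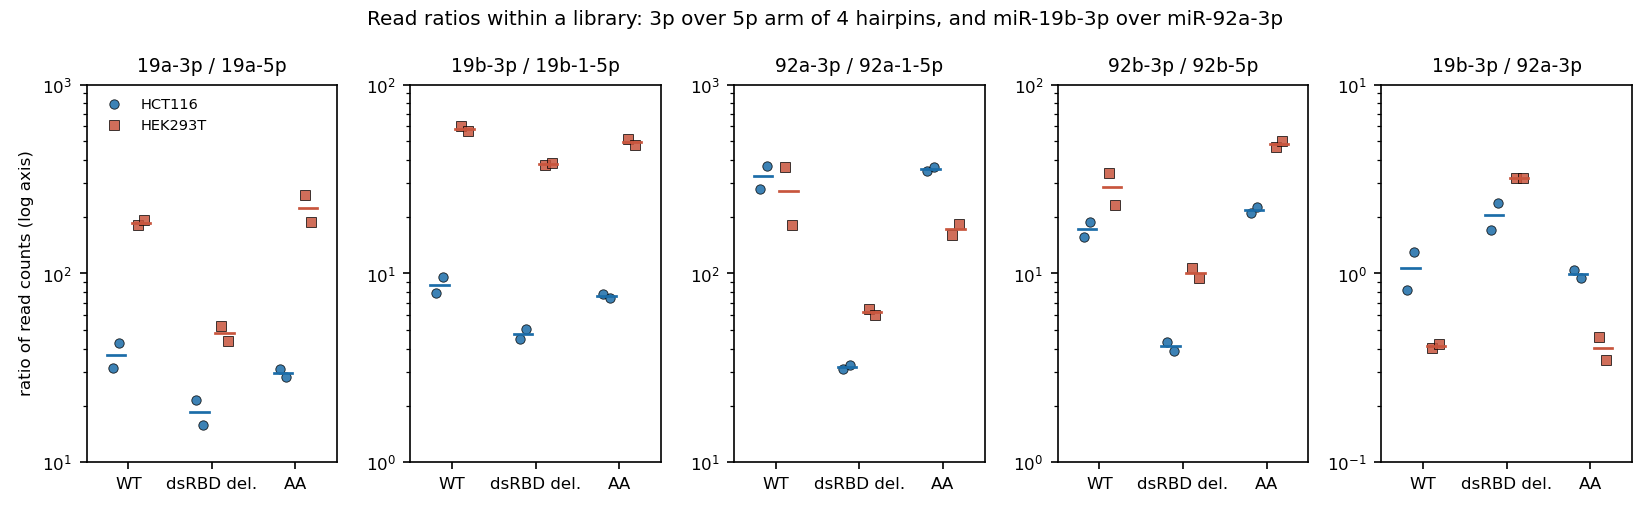
Ratio of read counts within each library on log axes whose ranges differ between panels: 3p over 5p arm for 4 hairpins, and miR-19b-3p over miR-92a-3p at the right; points are libraries (circles HCT116, squares HEK293T) and bars are means of 2. In all 4 arm panels the deletion libraries lie below WT, most for miR-92a-1 in HCT116 (31.2 and 32.9 against 280 and 372), while in the right panel they lie above WT.

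Ratios between guides, which are likewise free of the scaling, separated the families. MiR-19b-3p gave 0.822 and 1.305 reads per read of miR-92a-3p with WT in HCT116 and 1.70 and 2.37 with the deletion, a 1.94-fold rise (log2 change 0.96 ± 0.22, edgeR adjusted p = 0.000892). In HEK293T it gave 0.403 and 0.425 with WT and 3.19 and 3.18 with the deletion, 7.70-fold (2.94 ± 0.12, edgeR adjusted p = 2.17e-10). The chromosome 13 hairpins of these guides are neighbours on MIR17HG, though both guides also have an X-linked copy. MiR-19a-3p over miR-92a-3p rose 4.08-fold in HEK293T (edgeR adjusted p = 3.79e-08) and had a log2 change of 0.39 ± 0.28 in HCT116 (edgeR adjusted p = 0.225). The HCT116 change depended on single libraries. It was 0.89 without deletion replicate 1 and 0.82 without WT replicate 2, but −0.11 without deletion replicate 2 and −0.04 without WT replicate 1.
Within the seed families the deletion widened the gap between paralogs. MiR-92a-3p over miR-92b-3p went from 10.95 and 12.4 to 28.0 and 30.1 in HCT116 (1.32 ± 0.18, edgeR adjusted p = 2.40e-06) and from 61.2 and 67.1 to 172 and 199 in HEK293T (1.53 ± 0.12, edgeR adjusted p = 2.13e-07). MiR-19b-3p over miR-19a-3p went from 3.61 and 3.49 to 6.71 and 6.70 in HEK293T (0.92 ± 0.11, edgeR adjusted p = 5.32e-06). In HCT116 it went from 2.06 and 1.80 to 3.43 and 2.38 (0.57 ± 0.19, edgeR adjusted p = 0.0160), a call that was lost without WT replicate 2 (0.47, edgeR adjusted p = 0.118) or deletion replicate 1 (0.30, edgeR adjusted p = 0.198).
Among the passengers, miR-19b-1-5p over miR-92a-1-5p went opposite ways in the lines. It fell from 29.3 and 50.8 to 11.7 and 15.3 in HCT116 (−1.48 ± 0.24, edgeR adjusted p = 3.03e-05) and rose from 2.46 and 1.36 to 5.55 and 5.02 in HEK293T (1.53 ± 0.28, edgeR adjusted p = 0.000366).

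The deletion effect itself was compared between the lines as a contrast over all 12 libraries. It was higher in HEK293T than in HCT116 for all 4 miR-19 members and lower for miR-92a-1-5p, where 22.4% of 844 names were called higher and 12.4% lower. The differences of the log2 fold changes were 1.71 ± 0.28 for miR-19a-3p, 2.08 ± 0.21 for miR-19b-3p, 2.57 ± 0.34 for miR-19a-5p and 1.85 ± 0.24 for miR-19b-1-5p, beside a median of 0.34 over all names. Their adjusted p in edgeR was between 9.01e-08 and 3.28e-05. For the miR-92 guides the difference was 0.10 ± 0.24 (miR-92a-3p) and −0.09 ± 0.30 (miR-92b-3p), neither of which was called. With library totals, where the median of all names was −0.40, both were called lower (−0.62 and −0.81, edgeR adjusted p = 0.0321 and 0.0475). MiR-92b-5p was not called (−0.62 ± 0.40, edgeR adjusted p = 0.257), but was called lower with library totals (−1.32, edgeR adjusted p = 0.0145), without a filter (−0.97, 0.049) and without HCT116 WT replicate 1 (−1.20, 0.0167).
For miR-92a-1-5p the difference was −1.22 ± 0.39 (edgeR adjusted p = 0.0169). This call was lost without HEK293T WT replicate 2 (−0.59, edgeR adjusted p = 0.208), HCT116 deletion replicate 1 (−0.94, 0.0929) or HEK293T deletion replicate 1 (−1.05, 0.0629).

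With AA DICER none of the 8 members was called in HCT116 by edgeR, where 7.42% of all 795 names were, and none reached an unadjusted p of 0.05 (the lowest was 0.129, for miR-19b-1-5p). DESeq2's Wald test also called none. The log2 fold changes ran from −0.33 ± 0.26 for miR-92b-5p to 0.19 ± 0.11 for miR-19b-1-5p. MiR-19b-3p was at 9398 and 8981 CPM with AA beside 8526 and 9941 CPM with WT, and miR-92a-3p at 8978 and 9546 CPM beside 10368 and 7618 CPM, with overlapping groups in both. Without WT replicate 2, miR-92b-5p was called lower (−0.71, edgeR adjusted p = 0.0325).
In HEK293T, AA was followed by 3 members called higher (of all 626 names, 6.23%) and none lower (of all, 15.2%). MiR-92b-3p went from 2253 and 1765 CPM with WT to 3401 and 3548 CPM (log2 fold change 0.79 ± 0.18, edgeR adjusted p = 0.0109), the opposite direction to the deletion. MiR-92a-1-5p went from 377 and 652 CPM to 972 and 921 CPM (0.88 ± 0.23, edgeR adjusted p = 0.0223), and miR-19b-1-5p from 927 and 890 CPM to 1383 and 1224 CPM (0.52 ± 0.16, edgeR adjusted p = 0.0412). In all 3 the AA libraries lay above WT, and groups did not overlap for 59.6% of all names.
These calls were fragile. MiR-19b-1-5p lost its call when any 1 of the 6 libraries was left out, at adjusted p values in edgeR of 0.0523 to 0.22, and also with library totals (0.0581) or without a filter (0.426). MiR-92a-1-5p lost it without WT replicate 1 or either AA library (0.0554 to 0.0946), and miR-92b-3p without WT replicate 2 (0.0876) or without a filter on low counts (0.0506). On spike-in scaling none of the 3 was called, at 0.31, 0.40 and 0.05 in the order given. The other 5 members were not called, and miR-19b-3p, at 71376 and 58865 CPM beside 55606 and 50269 CPM, had a log2 fold change of 0.30 ± 0.16 (edgeR adjusted p = 0.214).

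With AA no arm ratio of the 4 hairpins was called in either line by edgeR, where 11.7% of 231 hairpins were called in HCT116 and 9.89% of 182 in HEK293T. At an unadjusted p under 0.05 stood miR-92a-1 (log2 change of 3p over 5p −0.59 ± 0.23, edgeR adjusted p = 0.130) and miR-92b (0.78 ± 0.27, edgeR adjusted p = 0.0899), both in HEK293T. Of the miR-92a-1 hairpin the WT libraries gave 366 and 181 and the AA libraries 160 and 183. Without WT replicate 2 it was called lower (−1.10, edgeR adjusted p = 0.00293), and it was called without either deletion library too (−0.59, edgeR adjusted p = 0.00489 and 0.0049). The miR-92b ratio was called higher without WT replicate 1 (1.06, edgeR adjusted p = 0.0474).
Of the guide ratios in HEK293T, miR-19b-3p over miR-19a-3p rose with AA from 3.61 and 3.49 to 4.91 and 4.96 (0.48 ± 0.11, edgeR adjusted p = 0.0109). MiR-92a-3p over miR-92b-3p fell from 61.2 and 67.1 to 45.7 and 47.4 (−0.46 ± 0.12, edgeR adjusted p = 0.0264), and miR-19a-3p over miR-92a-3p from 0.112 and 0.122 to 0.0935 and 0.0706 (−0.52 ± 0.14, edgeR adjusted p = 0.0246). Both falls lost their call without either WT library, and the last also without AA replicate 2, at adjusted p values in edgeR of 0.0509 to 0.137. MiR-19b-3p over miR-92a-3p, the ratio that moved most with the deletion, was at 0.459 and 0.350 with AA beside 0.403 and 0.425 with WT (−0.05 ± 0.12, edgeR adjusted p = 0.858). MiR-19b-1-5p over miR-92a-1-5p was called lower with AA only when WT replicate 2 was left out (−0.84, edgeR adjusted p = 0.0408).
No member differed between the lines in its AA effect by edgeR, where 0.948% of 844 names were called higher and 2.96% lower. At an unadjusted p under 0.05 stood miR-92b-3p (0.86 ± 0.29, edgeR adjusted p = 0.120) and miR-92a-1-5p (1.13 ± 0.40, edgeR adjusted p = 0.145). Both were called with DESeq2 size factors in edgeR (0.96, adjusted p = 0.0426, and 1.28, adjusted p = 0.0295) and without HCT116 WT replicate 2, and miR-92a-1-5p also without HEK293T WT replicate 2 (1.71, adjusted p = 0.00437) and without a filter on low counts (1.13, adjusted p = 0.017).

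Set directly against the dsRBD deletion, AA gave 2 members called higher (of all 795 names, 29.6%) and 4 lower (of all, 26.9%) in HCT116, and 3 higher (of all 626 names, 36.1%) and 4 lower (of all, 36.9%) in HEK293T. Both forms are compared with the same WT libraries elsewhere, while this comparison uses them only in the shared filter, scaling and estimate of spread. MiR-92b-3p was 3.75-fold higher with AA than with the deletion in HCT116 and 8.24-fold in HEK293T (edgeR adjusted p = 3.00e-05 and 2.38e-07). MiR-92a-1-5p was 7.60-fold lower with AA in HCT116 (edgeR adjusted p = 4.53e-06), and in HEK293T its log2 difference was −0.39 ± 0.23 (edgeR adjusted p = 0.152), called lower with library totals (−0.56, edgeR adjusted p = 0.039). MiR-19b-3p was 3.802-fold lower with AA in HEK293T (edgeR adjusted p = 2.08e-06) and 1.38-fold in HCT116 (edgeR adjusted p = 0.00769). The HCT116 value of miR-19b-3p lost its call without deletion replicate 2 or either AA library (edgeR adjusted p = 0.0707 to 0.158), as did that of miR-19a-5p (0.0897 to 0.871). Without a filter on low counts the miR-19b-3p call was lost as well (−0.22, edgeR adjusted p = 0.243).

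Each library held reads of 30 spike-in RNAs, so the members were also expressed per spike-in read. Whether every library received an equal amount of spike-in is not stated in the sources used here, and the ratios measure amounts only if it did. The exact permutation test of 2 against 2 libraries cannot go below p = 0.333, so the ratios are a description.
In HCT116 with the deletion, miR-92a-1-5p was the only member above WT, at 0.0168 and 0.0142 reads per spike-in read against 0.00895 and 0.00615, 205% of the WT mean. Of the single spike-ins, 30 of 30 put it above WT. The miR-19 guides stood at 39.6% (miR-19b-3p) and 27.3% (miR-19a-3p) of WT, and their passengers at 72.2% (miR-19b-1-5p) and 59.2% (miR-19a-5p). The miR-92 guides stood at 20.7% (miR-92a-3p) and 8.28% (miR-92b-3p), and miR-92b-5p at 33.7%.
In HEK293T with the deletion, miR-19b-3p gave 7.69 and 7.20 reads per spike-in read against 4.65 and 3.92 with WT, 174% of WT, with 22 of 30 single spike-ins above WT. Its passenger miR-19b-1-5p was at 269% and miR-19a-5p at 355%, with 28 and 30 of the 30 spike-ins above WT. MiR-19a-3p at 92.2% and miR-92a-1-5p at 90.7% overlapped with WT. MiR-92a-3p fell to 2.41 and 2.26 reads per spike-in read from 11.5 and 9.23 with WT, 22.5% of WT, miR-92b-3p stood at 7.81% and miR-92b-5p at 21.99%, all 3 below WT by each of the 30 spike-ins.
With AA, the median log2 fold change of all names on spike-in scaling was −0.63 in HCT116 and −0.58 in HEK293T, so lower values were common. Beside that shift of all names, all 8 members were below the WT mean in HCT116, at 61.0% to 84.1%. In HEK293T 6 of the 8 were, at 44.6% to 87.4%. The exceptions in HEK293T were miR-92b-3p at 104% and miR-92a-1-5p at 113%, both overlapping with WT. MiR-19b-1-5p, at 87.4% there, overlapped with WT too, with 14 of 30 single spike-ins putting it below WT and 16 above.

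**Figure D3:**
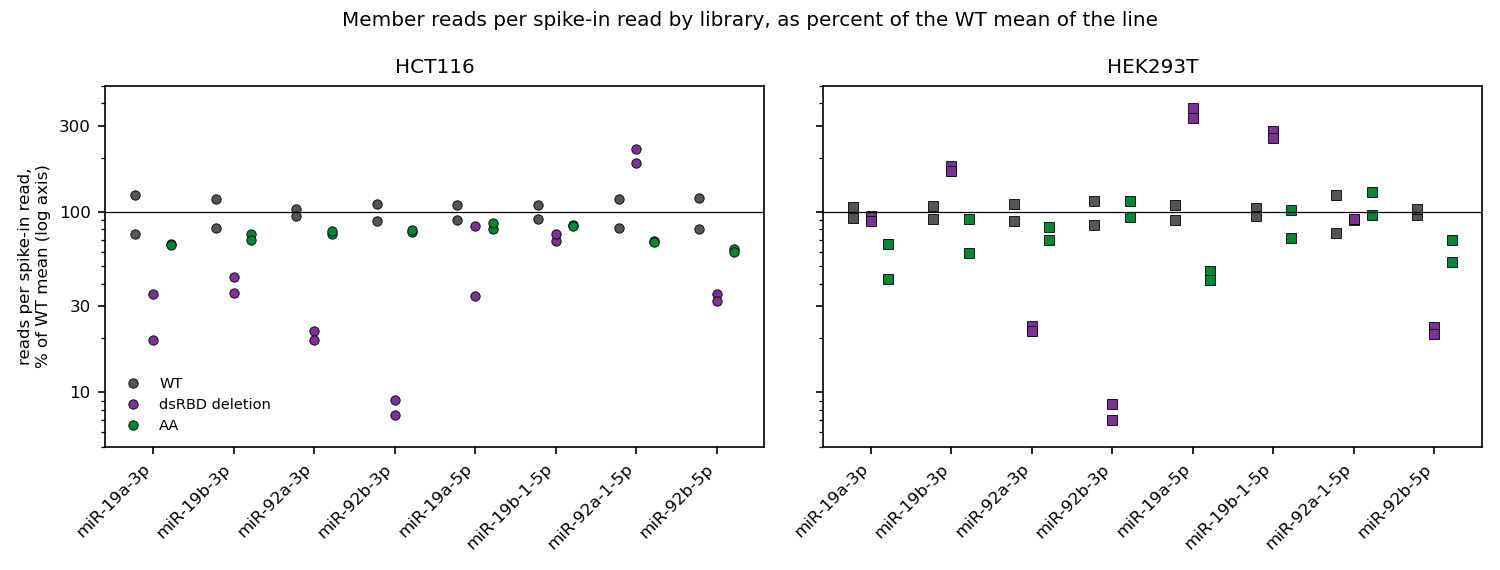
Reads of each member per spike-in read in each library, as percent of the WT mean of the line, on a log axis shared by both panels; 2 points per group, WT grey, dsRBD deletion purple, AA green, and the horizontal line marks 100%. In HCT116 only miR-92a-1-5p lies above WT with the deletion (205%), while in HEK293T miR-19b-3p, miR-19a-5p and miR-19b-1-5p lie above it (174%, 355% and 269%).

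On spike-in scaling in edgeR, the deletion effect in HCT116 was −1.88 ± 0.28 for miR-19a-3p, −1.35 ± 0.28 for miR-19b-3p and −0.74 ± 0.26 for miR-19a-5p on the log2 scale, all called lower, and −0.48 ± 0.27 for miR-19b-1-5p (edgeR adjusted p = 0.091). MiR-92a-1-5p stayed called higher, at 1.02 ± 0.27 (edgeR adjusted p = 0.000291). In HEK293T, miR-19b-3p (0.77 ± 0.27, edgeR adjusted p = 0.0168), miR-19a-5p (1.80 ± 0.26) and miR-19b-1-5p (1.40 ± 0.26) stayed called higher, while miR-19a-3p (−0.15 ± 0.26) and miR-92a-1-5p (−0.19 ± 0.28) were not called. MiR-92a-3p and miR-92b-3p were called lower in both lines on this scale too, at −2.28 and −3.60 in HCT116 and −2.17 and −3.70 in HEK293T. The line difference of the miR-19 members hardly moved, at 1.75 to 2.56, all called.

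**Figure D4:**
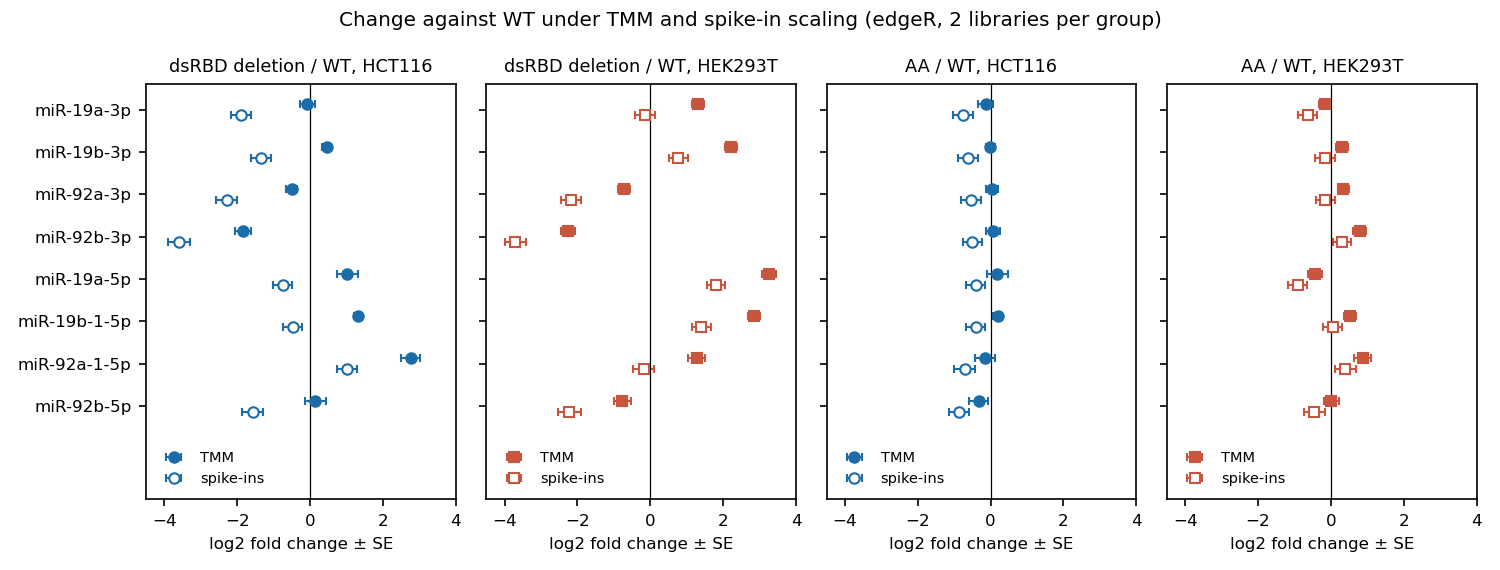
Log2 fold change against WT with its SE for the 8 members in the 4 comparisons, from edgeR on 2 libraries per group; filled symbols are TMM scaling and open symbols spike-in scaling, circles HCT116 and squares HEK293T, and the vertical line marks no change. Spike-in scaling moves every member to lower values, which takes miR-19b-3p across 0 with the deletion in HCT116 (0.46 to −1.35) but not in HEK293T (2.23 to 0.77).

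Of 6 further names of the miR-17-92 cluster, with the dsRBD deletion 1 was called higher and 3 lower in HCT116 (of all names, 28.1% and 34.1%), and 2 higher and 2 lower in HEK293T (of all names, 35.9% and 39.6%). Their median log2 fold changes were −0.46 and −0.23, and with 6 names these counts lie near the shares over all names. Its most abundant names, the guides miR-17-5p and miR-20a-5p, had log2 fold changes of −0.94 ± 0.11 and −0.04 ± 0.12 in HCT116 (edgeR adjusted p = 3.25e-05 and 0.746) and −1.05 ± 0.17 and −0.33 ± 0.17 in HEK293T (0.000181 and 0.0999). With AA, edgeR called 0 of the 6 in HCT116 (of all names, 7.42%) and 1 lower in HEK293T (of all names, 15.2%).
Of the miR-92 seed relatives, miR-25-3p fell with the deletion, at a log2 fold change of −4.21 ± 0.13 in HCT116 (edgeR adjusted p = 2.69e-09) and −5.13 ± 0.21 in HEK293T (edgeR adjusted p = 1.40e-08). The difference from the miR-92 guides was not tested. MiR-32-5p, a 5p guide with the same seed, had −0.65 ± 0.19 in HCT116 (edgeR adjusted p = 0.0126) and 0.27 ± 0.19 in HEK293T (edgeR adjusted p = 0.202). MiR-363-3p and miR-367-3p were tested in neither line. Of the 4 seed relatives, 4 were listed in HCT116 and 3 in HEK293T, and those listed but not tested did not pass the filter.
Of 10 further names of the X-linked cluster, 3 were tested in each line. With the deletion, 0 were called higher and 1 lower in HCT116, and 1 higher and 1 lower in HEK293T, too few to set against the shares over all names just given. Its most abundant name, miR-106a-5p, had −1.10 ± 0.14 in HCT116 and −1.58 ± 0.20 in HEK293T (edgeR adjusted p = 4.97e-05 and 3.48e-05). MiR-19b-2-5p, the passenger of its miR-19b hairpin, made up 0.117% to 0.598% of miR-19b 5p reads over the 12 libraries. The table does not list miR-92a-2-5p, the X-linked miR-92a passenger, for either line.

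Over the 12 libraries, with the mean of each line removed from log2 CPM, the miR-19 members tracked one another and ran against the miR-92 guides. Pearson's r was 0.920 between the miR-19 guides, 0.971 between the miR-92 guides and −0.698 between miR-19b-3p and miR-92a-3p. These are descriptions over libraries that share a scaling and 3 forms of DICER. Of 185 other names with a mean of at least 100 CPM in both lines, the closest to miR-19b-3p were miR-195-5p (0.991), miR-193a-3p (0.989) and miR-362-5p (0.981). The closest to miR-19a-3p were miR-15b-5p (0.958), miR-33a-5p (0.947) and miR-362-3p (0.938). MiR-92b-3p was closest to miR-30b-5p (0.986), miR-423-3p (0.983) and miR-126-5p (0.980), and miR-92a-3p to miR-423-3p (0.956), miR-30b-5p (0.940) and miR-940 (0.936). The miR-92a guide and its own passenger ran against each other (−0.540), whereas the guide and passenger of miR-19b-1 ran together (0.968).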

How the data were processed

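AQ-seq small RNA libraries were made from TRIzol total RNA and sequenced on a NovaSeq instrument, per the labels' protocols. The deposited values are raw counts per miRNA name and per spike-in RNA, 1 table per library. Per the submitters' processing notes, cutadapt, BWA and bedtools were used, with the builds hg38 and mm10. The sources used here do not give versions, roles or the miRNA annotation. Library sizes and tests excluded spike-in reads. TMM scaling and tests used names passing filterByExpr (minimum count 10) in R 4.3.3 with edgeR 4.0.16 (quasi-likelihood F test, group means, 6 libraries of a line, 3 residual degrees of freedom), two-sided, Benjamini-Hochberg adjusted over all names at 0.05. DESeq2 1.42.0 and limma 3.58.1 were also loaded, and DESeq2's Wald test was an alternative. Line contrasts used 12 libraries (6 residual degrees of freedom). Arm and pair ratios were tested as the edgeR interaction with library as a block, over hairpins whose arms each held 10 reads or more in 2 libraries or more. There were 9 comparisons of levels and 4 of ratios, each adjusted on its own. Standard errors are the absolute log2 change over the square root of F. Hairpins were folded with ViennaRNA 2.7.2. Replicate numbers showed no sign of pairing libraries (correlations of replicate differences between groups −0.104 to 0.147), so the main tests used no replicate block. With 1 replicate difference per group such values cannot exclude pairing. Scripts were tested on simulated data. The members, lists and tests were chosen with earlier results of these data known. All 8 members are named, and of each further list the 2 most abundant names may be.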

Additional observations from a re-analysis of the deposited data

Results flagged for a closer look

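The effect of the dsRBD deletion differed between the lines for 5 of the 8 members, by an edgeR contrast of HEK293T minus HCT116 over all 12 libraries. The difference of the log2 fold changes was 1.71 for miR-19a-3p, 2.08 for miR-19b-3p, 2.57 for miR-19a-5p and 1.85 for miR-19b-1-5p, and −1.22 for miR-92a-1-5p. Of all 844 names 22.4% were called higher and 12.4% lower in this contrast, with a median of 0.34. Without HCT116 deletion replicate 2 the value of miR-19a-5p was 3.19, and without HEK293T WT replicate 2 that of miR-92a-1-5p was −0.59 and not called. The members started from different levels: with WT, miR-92a-1-5p was at 28.6 ± 11.7 CPM in HCT116 and 505 ± 243 CPM in HEK293T (mean ± SD, n = 2, scaled over all 12 libraries).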

How the results depend on the processing

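Having 2 libraries per group limits all values, and depth limits the passengers, whose lowest counts were 48 reads for miR-92b-5p, 68 for miR-92a-1-5p and 89 for miR-19a-5p. The share of all names called under the same setting stands in brackets. On spike-in scaling the members called with the deletion in HCT116 were 1 higher (0.881%) and 6 lower (75.2%), and 3 were higher in HEK293T (9.58%). With AA they were 3 lower in HCT116 (34%), and 0 higher (1.28%) and 1 lower (30.4%) in HEK293T. AA against the deletion in HCT116 gave 5 higher (59.9%) and 1 lower (1.76%), and HEK293T against HCT116 with WT 3 higher (10.1%) and 3 lower (68.4%). With library totals, 1 member was lower with the deletion in HCT116 (24.9%), 1 was higher with AA against the deletion in HCT116 (22.8%), 0 were lower in HEK293T against HCT116 (37.1%), and 4 were lower in the line difference of the deletion effect (23.3%). Without a filter on low counts, 1 was higher with AA in HEK293T (1.43%), 2 were lower in the line difference of the deletion effect (9.1%) and 1 higher in that of AA (0.937%). DESeq2 size factors gave 2 higher in the line difference of AA (2.25%).

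Values that changed sign follow, as log2 changes. Of 1236 alternative values of members and pairs 82 changed sign, 66 of them called neither before nor after, the largest of these at 0.585 in size. On spike-in scaling the deletion in HCT116 gave −1.35 for miR-19b-3p, −0.74 for miR-19a-5p, −0.48 for miR-19b-1-5p and −1.58 for miR-92b-5p, and in HEK293T −0.15 for miR-19a-3p and −0.19 for miR-92a-1-5p. AA in HCT116 gave −0.41 for miR-19a-5p and −0.41 for miR-19b-1-5p, −0.53 for miR-92a-3p and −0.50 for miR-92b-3p, and in HEK293T −0.17 for miR-19b-3p, −0.15 for miR-92a-3p and −0.46 for miR-92b-5p. AA against the deletion gave 1.12 for miR-19a-3p, 0.72 for miR-19b-3p, 0.33 for miR-19a-5p, 0.065 for miR-19b-1-5p and 0.70 for miR-92b-5p in HCT116, and 0.59 for miR-92a-1-5p in HEK293T. HEK293T against HCT116 gave −0.12 for miR-19a-3p, −0.31 for miR-92b-3p and −1.06 for miR-92b-5p. With library totals the deletion in HCT116 gave 0.47 for miR-19a-3p and 0.0046 for miR-92a-3p. AA gave 0.053 for miR-19a-3p, 0.17 for miR-19b-3p and 0.0023 for miR-92a-1-5p in HCT116, and −0.041 for miR-92b-5p in HEK293T. The line difference was −0.62 for miR-92a-3p with the deletion and −0.29 for miR-19a-3p with AA. Without a filter miR-92b-5p was at −0.079 with the deletion in HCT116 and −0.11 with AA in HEK293T, miR-19b-3p at 0.011 with AA and miR-19a-3p at 0.18 with AA against the deletion in HCT116, and miR-92a-3p at −0.25 in the line difference of the deletion effect. DESeq2 size factors gave −0.20 for that last value, 0.024 for miR-19b-3p with AA and 0.035 for miR-19a-3p with AA against the deletion in HCT116, and DESeq2's Wald test 0.024 and 0.036 for the latter pair. Per spike-in read by size factors, miR-19b-1-5p with AA in HEK293T was at 0.049. The cause of these changes beyond the scaling itself was not tested.

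Leaving out 1 library at a time left 1 group with a single library, so the ranges below are of effect sizes alone. Several calls that a left-out library changed are named with the results above. Where a left-out library changed a sign, the range with the deletion in HCT116 was −0.56 to 0.086 for miR-19a-3p and −0.30 to 0.54 for miR-92b-5p. With AA in HCT116 it was −0.33 to 0.083 for miR-19a-3p, −0.12 to 0.099 for miR-19b-3p, −0.17 to 0.28 for miR-92a-3p, −0.22 to 0.40 for miR-92b-3p, −0.52 to 0.33 for miR-92a-1-5p and −0.71 to 0.19 for miR-92b-5p. With AA against the deletion it was −0.22 to 0.43 for miR-19a-3p in HCT116, and with AA in HEK293T −0.39 to 0.028 for miR-19a-3p and −0.081 to 0.13 for miR-92b-5p. In the line difference it was −0.20 to 0.33 for miR-92a-3p and −0.50 to 0.19 for miR-92b-3p with the deletion, and −0.32 to 0.27 for miR-19a-3p and −0.086 to 0.67 for miR-92b-5p with AA. Of the ratios, miR-19a-3p over miR-92a-3p ranged from −0.11 to 0.89 with the deletion in HCT116. With AA in HCT116 the arms of miR-92a-1 ranged from −0.055 to 0.35, miR-92a-3p over miR-92b-3p from −0.13 to 0.051, miR-19b-3p over miR-92a-3p from −0.40 to 0.27, miR-19a-3p over miR-92a-3p from −0.61 to 0.26 and miR-19b-1-5p over miR-92a-1-5p from −0.12 to 0.67. With AA in HEK293T miR-19b-3p over miR-92a-3p ranged from −0.24 to 0.15 and miR-19b-1-5p over miR-92a-1-5p from −0.84 to 0.012. Where leaving out a library left a group with 1, that library was assumed to vary like the other groups.

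The replicate number was also used as a block, although no sign of pairing by number was seen. With the deletion in HCT116 this gave 4 members called higher (of all names, 27.2%) and 2 lower (of all, 33%). In HEK293T it gave 5 higher (of all, 36.3%) and 3 lower (of all, 40.4%). These member counts are the same as without the block. With it, miR-92b-5p was called higher in HEK293T against HCT116 (0.58, edgeR adjusted p = 0.0494). Over all names, AA in HCT116 called 59, on spike-in scaling 272, and 10 and 23 without AA replicate 1 and 2. AA in HEK293T called 134, and 88 without WT replicate 1 and 54 without AA replicate 2. The line difference of AA called 33, with library totals 78 and without HCT116 deletion replicate 2 50. Of the calls over all names, 45.1% were higher with the deletion in HCT116, 61.6% with library totals and 1.16% on spike-ins, and in HEK293T 47.6%, and 13.5% on spike-ins. With AA in HCT116 16.9% were higher, 48.9% with totals and 0.735% on spike-ins, and in HEK293T 29.1%, 41% with DESeq2 size factors and 4.04% on spike-ins. For AA against the deletion it was 52.3% in HCT116, 39.6% with totals and 97.1% on spike-ins, and in HEK293T 49.5%, and 76.5% on spike-ins. For HEK293T against HCT116 it was 43.7%, and 12.8% on spike-ins. For the line difference of the deletion effect it was 64.3%, 52.8% with DESeq2 size factors and 32.1% with totals, and for that of AA 24.2%, 43.2% with DESeq2 size factors, 8.97% with totals and 36.4% on spike-ins.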
